A study of Mus musculus with 12 samples.

Results

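C2 is 1 of 4 clonal neural progenitor cell (NPC) lines grown from the female (XX) mouse embryonic stem (ES) line F1-21.6. It is described here against its 3 sister clones, 129, G4 and E1.2. In a table of 14899 genes, 14415 were autosomal and only these were used. In C2, 12717 of them had at least 20 counts that tell the alleles apart, and 11618 reached 20 counts in all 4 clones. A gene was called monoallelic where the major allele took at least 85% of these counts, and biallelic where it took at most 70%. By these limits 27 genes were monoallelic in C2 and biallelic in every sister, and 17 genes were the reverse. 1 gene was silent in C2 only, 2 were expressed in C2 only, 41 stood far above and 11 far below every sister in level.

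The cells are hybrids of the mouse strains 129Sv and Cast/EiJ, so that many genes carry variants that assign a read to one parental allele. Both ES lines, F1-21.6 (XX) and F1-23 (XY), were kept on growth-arrested mouse embryonic fibroblasts in serum with leukaemia inhibitory factor. NPC lines were derived from them, and polyadenylated RNA was sequenced with 100 bp paired reads. Each clone is represented by 1 library, so a feature of C2 cannot be told apart from a feature of its library. A repeat library of C2 was not analysed here. NPC clones of the XY line (mC3, mE6, mB4, mG3) and both ES lines serve as outside readouts. The labels name no treatment and no engineered allele.

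Most autosomal genes are transcribed from both parental copies. Random monoallelic expression is the state in which a cell uses one copy, a different one in different cells, and passes that choice to its daughters. In bulk RNA it therefore shows only in clones. It differs from imprinting, in which the parent of origin fixes the active copy, and from X inactivation, which silences a whole chromosome.

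Most progenitor genes checked were high in C2 and low in the ES line of origin. Fabp7, the radial glial fatty acid binding protein, had 2001 FPKM (fragments per kilobase of transcript in a library scaled to a fixed size) in C2 and 1533, 2694 and 2450 FPKM in clones 129, G4 and E1.2, and was listed at 0 in F1-21.6. The progenitor filament gene Nes had 200.4 FPKM in C2 and 280.8, 194.4 and 73.0 FPKM in these sisters, with 2.47 FPKM in F1-21.6. Olig2, a factor of ventral progenitors and the oligodendrocyte lineage, and Slc1a3, a glial glutamate transporter gene, were also higher in C2 than in F1-21.6, at 323.6 FPKM against 0 and 220.2 FPKM against 9.60 FPKM. Sox2, which ES cells also use, had 45.9 FPKM in C2 and 247.8 FPKM in F1-21.6. Sox1 was low in both, at 0.360 FPKM in C2, 2.59, 0.311 and 0.003 FPKM in the sisters and 0.851 FPKM in F1-21.6. None of the 22 expressed progenitor and radial glia genes of a list of 30 lay 2-fold outside the range of the sisters. C2 had a total of 100631463 counts, and clones 129, G4 and E1.2 had 66611144, 102153897 and 119266777. Clone 129 stood apart in this respect and also had the most autosomal genes without a count, 872, while C2 had 430 and the other sisters 403 and 244. The sizes of the sets monoallelic, biallelic, silent or expressed in C2 only, and far above or far below, are therefore also given without it. This was not done for genes of opposite allele or for genes 2-fold outside the sisters' range.

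In C2, 855 genes were monoallelic, 6.72% of those with 20 counts (95% Clopper-Pearson interval 6.29 to 7.17%), and 400 of them used the 129 allele. The share was 8.37% in clone 129, 6.99% in G4 and 6.70% in E1.2, so C2 was within the range of its sisters. Among the 11618 genes measured in all 4 clones, 475 were monoallelic in C2, or 4.09%. Along the chromosomes C2 was balanced: the median 129 share of an autosome ran from 49.5% on chromosome 3 to 50.5% on chromosome 12. The median log2 ratio of C2 to the sisters' mean count scaled to library size (CPM) ran from -0.09 on chromosome 1 to 0.04 on chromosome 4.

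The 27 genes that C2 alone used from one allele were 0.232% of the genes measured in all 4 clones. By the same rule clone 129 had 212 such genes (1.82%), G4 had 61 (0.525%) and E1.2 had 29 (0.25%). C2 thus had the fewest of the 4 clones. The count rests on all 3 sisters, since each of them can only remove genes: it was 83 without clone 129, 55 without G4 and 46 without E1.2. 14 of the 27 genes kept the 129 allele in C2 and 13 the Cast allele. 7 had at least 98% of the counts on that allele, and 12 had at least 500 counts in C2. The member nearest the limit for C2 was Lpin3, with 86.4% on the major allele, and the nearest gene outside was Fbxo47, with 84.8%. For the sisters, Sphk1 was just inside with 69.9% in its most skewed sister and Zfp442 just outside with 70.6%.

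**Figure D1:**
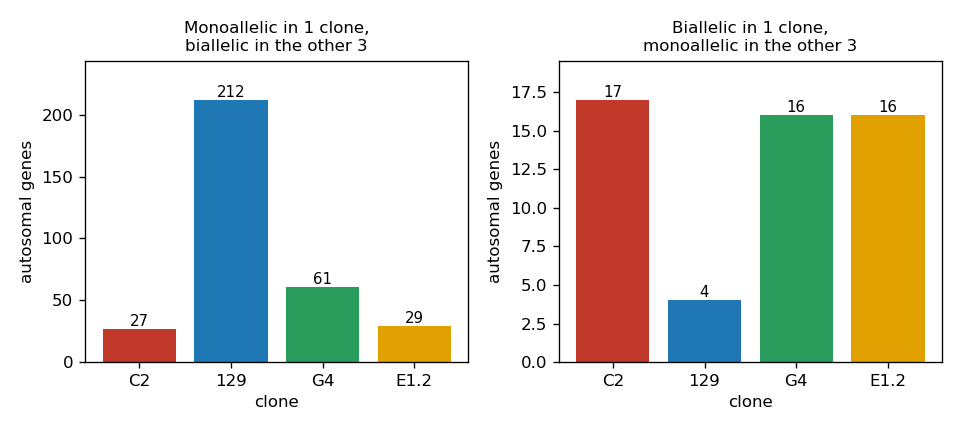
Number of autosomal genes (vertical axes) that are monoallelic in 1 clone and biallelic in the other 3 (left), and the reverse (right), for each of the 4 XX NPC clones (horizontal axes). C2 had 27 and 17 genes and clone 129 had 212 and 4.

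The most complete example among well-expressed genes was Gja1, which encodes connexin 43, the main gap junction protein of astrocytes and neural progenitors (mm9 chr10:56097106-56110225). In C2, 100% of 6782 counts came from the 129 allele (interval 99.95 to 100%). In clones 129, G4 and E1.2 the 129 share was 49.2%, 48.8% and 53.4%. Both alleles were read in the other lines: the share was 61.8% in the ES line F1-21.6, from which C2 was derived, and 50.3 to 52.0% in the 4 XY clones. The Cast allele had 0 CPM in C2 and 38.6, 86.8 and 87.6 CPM in the sisters. The 129 allele had 66.6 CPM in C2, inside the sisters' range of 37.4 to 100.2 CPM. The level of Gja1 in C2 was 25.9 FPKM, below 29.2 FPKM in clone 129, 58.2 FPKM in G4 and 69.8 FPKM in E1.2. The sequence upstream of its start is shown because the gene was read from a single copy in C2 and from both copies in the sisters; CG dinucleotides, the sites of DNA methylation, are in capitals. It covers the 250 bases before the RefSeq start on the plus strand of GRCm38.p6, chr10:56377050-56377299.
Gja1: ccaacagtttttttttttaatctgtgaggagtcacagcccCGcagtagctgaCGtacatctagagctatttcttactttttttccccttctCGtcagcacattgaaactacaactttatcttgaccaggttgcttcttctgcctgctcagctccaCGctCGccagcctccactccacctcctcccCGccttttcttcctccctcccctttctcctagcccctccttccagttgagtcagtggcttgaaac
This stretch held 6 CG. Among 7443 matched promoters of genes measured in all 4 clones the median was 18, and 81.7% held at least 10. CG reads the same on both strands.

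3 further genes were read from a single allele without exception or nearly so. Zfp26, a zinc finger protein (chr9:20232762-20264604), had 98.6% of 7541 counts on the 129 allele in C2 and 48.4%, 47.0% and 47.5% in clones 129, G4 and E1.2. Kctd18, which carries the tetramerisation domain of potassium channels (chr1:58011945-58026932), had 100% of 1834 counts on the 129 allele in C2 and 55.5%, 54.3% and 44.6% in the sisters. Cdk5rap1, an enzyme that modifies mitochondrial tRNA (chr2:154161122-154198707), had 98.3% of 352 counts on the 129 allele in C2 and 36.0%, 46.3% and 45.2% in the sisters. For all 3 genes the XY clones were biallelic, with 129 shares of 48.1 to 51.4%, 49.0 to 52.9% and 40.0 to 46.3%. The kept allele ran at the sisters' level, at 1.01 times their mean CPM for Zfp26, 0.973 times for Kctd18 and 0.984 times for Cdk5rap1. Zfp820, another zinc finger gene, had 100% of only 75 counts on the 129 allele in C2 (interval 95.2 to 100%) and 32.5%, 39.7% and 31.3% in the sisters.

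Other members kept the Cast allele. Tmem69, a transmembrane protein gene, had a 129 share of 11.6% over 3206 counts in C2 and 56.1%, 59.6% and 57.6% in the sisters. Abcd2, a peroxisomal transporter of very long-chain fatty acids, had 12.5% over 1588 counts in C2 and 54.5%, 51.9% and 49.5% in the sisters. Gpr123, an adhesion G protein-coupled receptor, had 3.82% over 917 counts in C2 and 31.8%, 30.9% and 36.1% in the sisters. In each of these the 3 sisters lay close together and C2 far from them. The calcium-activated potassium channel gene Kcnn1 had 1.60% of 187 counts from 129 in C2 and 48.5%, 47.3% and 63.0% in the sisters. Sphk1, which makes sphingosine 1-phosphate, had 1% of 100 counts from 129 in C2 (interval 0.025 to 5.45%) and 36.9%, 42.7% and 30.1% in the sisters. Sphk1 leaned to the Cast allele in every NPC clone, with 18.9 to 33.1% in the XY clones.

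Some calls were less complete or rested on few counts. Clic5, a chloride intracellular channel gene, had 93.3% of 2126 counts from 129 in C2 against 46.0%, 60.2% and 52.7%. Its level varied among the sisters, at 30.4, 0.240 and 15.4 FPKM in clones 129, G4 and E1.2, with 4.01 FPKM in C2. The interferon-inducible GTPase gene Gbp7 had 86.5% of 978 counts from 129 in C2 and 63.0%, 54.1% and 54.1% in the sisters. It was the one of the 20 named members whose other allele was not under the sisters' mean in C2: the Cast allele had 1.3 CPM in C2 and 0.859, 2.39 and 0.492 CPM in the sisters, while the 129 allele had 5.13 times the sisters' mean CPM. The uncharacterised gene 4933412E12Rik had 91.1% of 514 counts from 129 in C2, against 55.8%, 63.1% and 36.0%. The remaining named members, Gsto2, Lpin3, Abca12, Itih3 and Klrg2, had 49 to 62 counts in C2. Their 129 shares there were 9.68%, 86.4%, 9.80%, 10% and 93.9%. The interval of each crossed the limit of 85% on the major allele, as did that of Gbp7 (84.2 to 88.6%). Their membership is thus undecided within counting error. Some sister calls also rested on few counts, as Itih3 in clone 129 with 68.8% of 32 counts. Over all 27 genes the interval of a share in C2 reached at most 11.1 percentage points to either side of its middle. Gsto2 and Gja1 were the members on the gene lists used here.

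**Figure D2:**
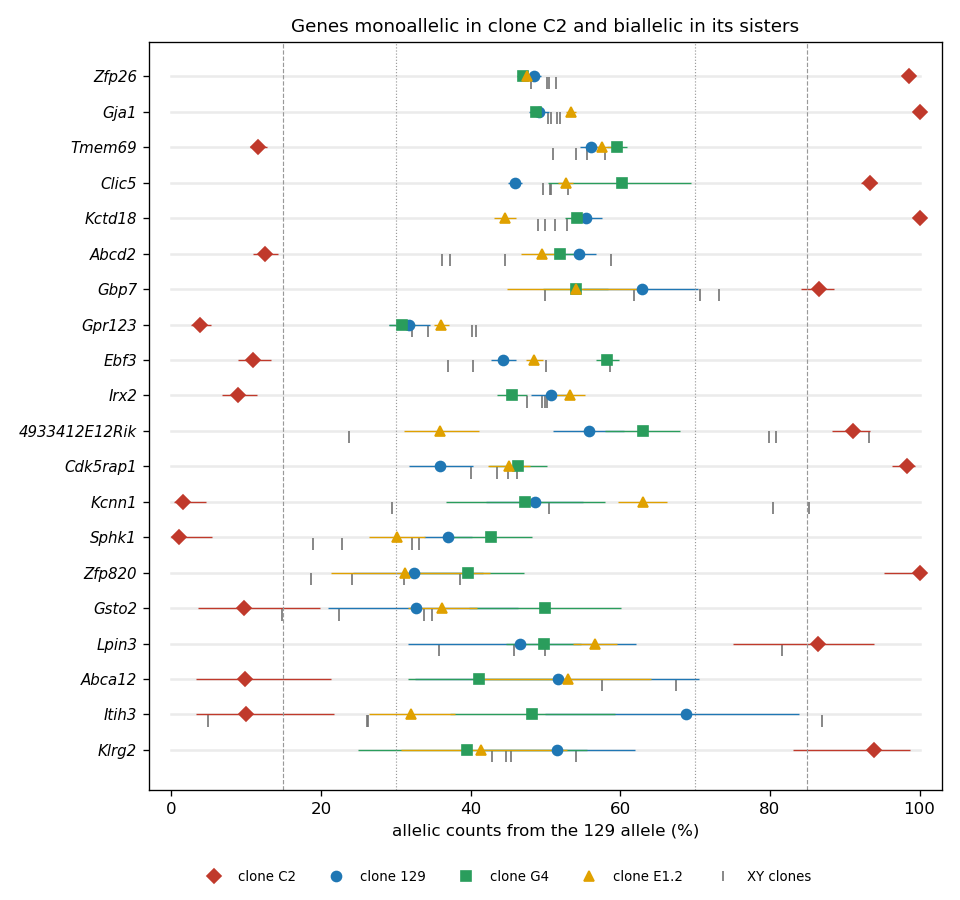
Percent of allelic counts from the 129 allele (horizontal axis) for the 20 named genes monoallelic in C2 and biallelic in the sisters, ordered by count in C2. Symbols are the 4 XX clones with 95% Clopper-Pearson intervals, grey ticks are XY clones with at least 20 counts, dashed lines mark 15 and 85% and dotted lines 30 and 70%. For Gja1 the sisters sit between 48.8 and 53.4% and C2 at 100%.

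The limma test on log2 ratios of 129 to Cast counts, 1 clone against 3, called 0 of 11618 genes (0%) at a Benjamini-Hochberg adjusted p of 0.05. Its unadjusted p was under 0.05 for 494 genes, 4.25% of those tested. The smallest adjusted p, 0.103, belonged to Zfp26 and Gja1, with log2 ratios that differed by 6.28 (SE 0.145) and 13.70 (SE 0.351). With the 4 XY clones added, so that 7 clones estimated the spread, 18 of 11253 genes passed (0.16%), and 11 of the 18 were among the 27. The 27 genes were chosen by the same shares, so these values describe them and test nothing.

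The allele that C2 kept was not above the sisters' level on the median. Across the 27 genes the kept allele had a median of 0.973 times the sisters' mean CPM (0.188 to 5.13) and the other allele 0.0506 times. 12 of the 27 had the kept allele above the sisters' mean. Total level was often low: the median log2 ratio of FPKM in C2 to the sisters' mean was -0.95, beside 0.02 over all 11618 genes. 15 of the 27 (55.6%) lay below every sister in FPKM, against 14.5% of all 11618, and 2 lay above every sister. Loss of counts from one allele is part of the rule, so no test was made of this.

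**Figure D3:**
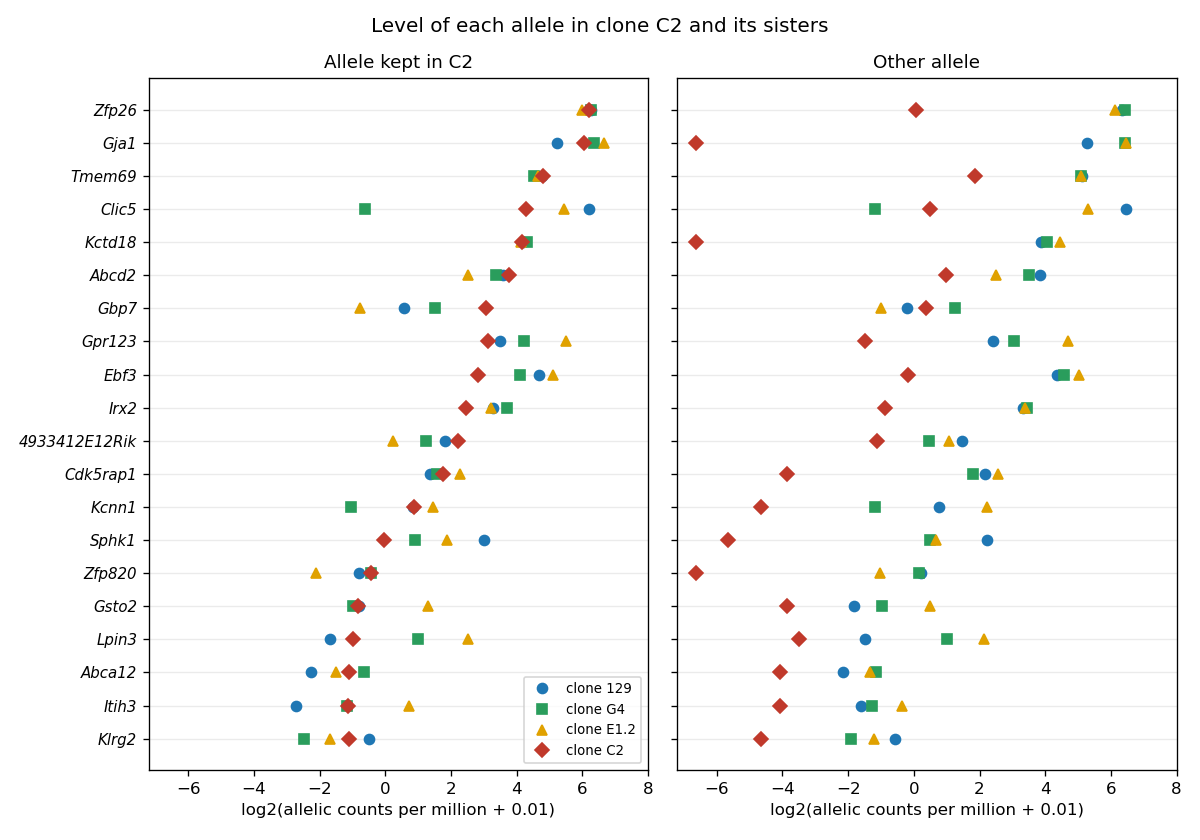
Log2 of allelic CPM plus 0.01 (horizontal axes) for the allele kept in C2 (left) and the other allele (right) in each XX clone, for the 20 named genes. On the left C2 lies within the range of its sisters for 11 of the 20 genes, as for Kctd18 at 18 CPM against 17.5 to 19.7 CPM, and on the right it lies under every sister for 18, all but Clic5 and Gbp7.

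The ES lines and XY clones gave readouts that the rule did not use. In the ES line of origin 16 of the 27 had 20 counts, 14 of these were biallelic and 0 monoallelic, beside 1.74% monoallelic among the genes biallelic in all sisters and 4.06% among all measured genes. In the other ES line, F1-23, 15 of 20 were biallelic and 2 (10%) monoallelic, beside 1.26% and 3.58%. In the 4 XY clones 22 had 20 counts in every clone. 11 of these 22 were biallelic in all 4 XY clones, as were 8532 of 9168 genes biallelic in all sisters. 4 of the 22 (18.2%) were monoallelic in at least 1 XY clone, beside 1.54% of the genes biallelic in all sisters and 7.73% of all. The 4 were 4933412E12Rik, Kcnn1, Gsto2 and Itih3, and Itih3 ran from 4.88% from 129 in mG3 to 87.0% in mC3. These sets differ in depth: the median count in C2 was 268 for the 27 and 3822 for the genes biallelic in all sisters. Of the 12 members with at least 500 counts in C2, 9 were biallelic in all 4 XY clones and 1 (8.33%) was monoallelic in at least 1. In F1-23, 0 of the 9 such members with 20 counts were monoallelic. The part of depth was not tested. Pooled over the 27, neighbours did not share the state. Of 485 measured genes within 1 Mb of a member, 89.9% were biallelic in C2, beside 89.2% of all measured genes. 16 of the 485 (3.30%) were monoallelic, beside 4.09%. Some members had such neighbours, as Kctd18 with 3 of 19 and Ebf3 with 1 of 3. The 27 lay on 15 chromosomes, and no pair of them lay within 1 Mb.

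In 2 places genes of transcription factors that were used from one allele were also low in C2 or had a low neighbour. Irx2 and Irx1 are Iroquois homeobox genes, patterning factors of the neural tube, 665 kb apart on chromosome 13. Irx2 (chr13:72766184-72771642) had a 129 share of 8.90% over 607 counts in C2 (interval 6.75 to 11.5%) and 50.7%, 45.6% and 53.2% in clones 129, G4 and E1.2. Its level was 1.998 FPKM in C2 and 6.50, 7.45 and 6.08 FPKM in the sisters. The Cast allele, kept in C2, was itself at 0.509 times the sisters' mean CPM. All 4 XY clones were balanced, at 47.6 to 50.2%, with 9.73 to 12.7 FPKM. The transcript D430050G20, which ends 0.082 kb before Irx2 in the table and was looked up after its values were seen, had a 129 share of 18.9% in C2 and 56.7%, 63.5% and 52.4% in the sisters, with 0.491 FPKM in C2 against 1.59, 1.11 and 1.22 FPKM. It missed the limit of 85%. Irx1 (chr13:72095680-72101171) had 4 counts and 0.029 FPKM in C2, against 155, 381 and 294 counts and 3.74, 6.47 and 4.89 FPKM in the sisters. By CPM it had 0.039 in C2 and 2.218 in the lowest sister, and with 4 counts its alleles could not be compared. The promoter of Irx2 is shown because both of its copies were read in every other clone; it is on the plus strand of GRCm38.p6, chr13:72628570-72628819, and held 19 CG. Irx1 had no entry in the promoter table.
Irx2: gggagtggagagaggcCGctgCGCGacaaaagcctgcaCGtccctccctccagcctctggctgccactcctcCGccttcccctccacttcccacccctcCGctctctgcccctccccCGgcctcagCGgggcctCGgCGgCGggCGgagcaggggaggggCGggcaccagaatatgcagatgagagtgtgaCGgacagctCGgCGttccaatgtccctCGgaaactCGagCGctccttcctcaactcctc

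Ebf3, a factor of neuronal differentiation (chr7:144385354-144506181), was both in the set of 27 and far below every sister. Its 129 share was 10.99% over 810 counts in C2 and 44.4%, 58.3% and 48.5% in the sisters. Its level was 0.988 FPKM in C2 and 5.64, 4.98 and 7.81 FPKM in the sisters, and the kept Cast allele stood at 0.275 times the sisters' mean CPM. Both alleles were therefore lower in C2, the 129 allele more so. The XY clones had 1.72 to 5.39 FPKM and 129 shares of 37.0 to 58.6%. In the edgeR fit the log2 fold change was -2.69 (SE 0.437) for Ebf3, -1.83 (SE 0.318) for Irx2 and -6.14 (SE 0.868) for Irx1, with an adjusted p of 1 for each.

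In the reverse direction, 17 genes were biallelic in C2 and monoallelic in every sister, 0.146% of those measured in all 4 clones. Clone 129 had 4 such genes (0.0344%), and G4 and E1.2 had 16 each (0.138%). The count was 51 without clone 129, 42 without G4 and 56 without E1.2. The entries Spink10 and Spink13 among the 17 overlap on chromosome 18. They had 320 and 315 counts in C2, and the same 469 and 133 counts in G4 and E1.2. The same locus may thus be counted under both names, and overlapping entries were not merged for any clone. 9 of the 17 (52.9%) lay above every sister in FPKM, beside 20.8% of all measured genes and 21.6% of the 199 monoallelic in all sisters, and the median log2 ratio to the sisters' mean was 0.48.

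Bche encodes butyrylcholinesterase (chr3:73439731-73512337). Its 129 share was 41.6% over 16715 counts in C2, and 0.5%, 14.7% and 11.7% in clones 129, G4 and E1.2, which all used the Cast allele. Its level was similar, 29.8 FPKM in C2 and 25.8, 19.1 and 21.8 FPKM in the sisters. Kcnk13, a background potassium channel gene (chr12:101198863-101300978), had a share of 64.9% over 16301 counts in C2, and 98.6%, 9.65% and 94.5% in the sisters, which therefore did not all use the same allele. It was also higher: 11.5 FPKM in C2 and 0.098, 1.14 and 1.11 FPKM in the sisters, and 1.35 to 3.47 FPKM in the XY clones.

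Cpped1, a phosphatase gene (chr16:11803814-11909516), split its sisters in the same way. Its 129 share was 44.8% over 7243 counts in C2, 99.9% in clone 129, 0.069% in G4 and 91.3% in E1.2, with 28.3 FPKM in C2 and 11.9, 20.3 and 17.99 FPKM in the sisters. 3 XY clones had 45.5 to 48.03% and mG3 had 0.041%. The AMPA receptor subunit gene Gria4 had a share of 33.3% over 8743 counts in C2 and 0.776%, 13.3% and 1.98% in the sisters, and 47.4 to 52.4% in all XY clones. The uncharacterised gene 8430419L09Rik had 45.9% over 8571 counts in C2 and 0.044%, 0.013% and 5.76% in the sisters. In the XY clones it was at 0.027 to 2.20% in 3 clones and at 99.8% in mE6, so that C2 was the one NPC clone of 8 with both alleles.

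**Figure D4:**
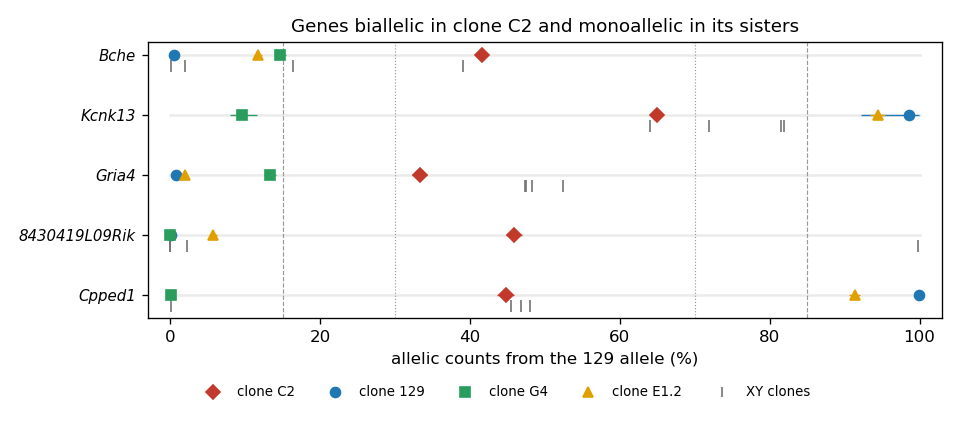
Percent of allelic counts from the 129 allele (horizontal axis) for the 5 named genes biallelic in C2 and monoallelic in the sisters, with symbols and lines as in the plot of shares for the 20 genes. C2 lies between 33.3 and 64.9% and every sister outside 15 to 85%.

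Carbonyl reductase genes Cbr1 and Cbr3, 72.9 kb apart on chromosome 16 and named after their values were seen, behaved alike in C2 against its sisters. Their allele shares differed in other lines. Cbr1 had a 129 share of 56.0% over 3229 counts in C2 and 99.1%, 93.1% and 85% in the sisters, with 27.9 FPKM in C2 and 5.60, 14.9 and 16.1 FPKM in the sisters. Cbr3 had 43.4% over 1842 counts in C2, no counts in clone 129, and 88.1% and 92.3% in G4 and E1.2, with 41.3 FPKM in C2 and 0.059, 5.18 and 8.83 FPKM. Both genes were thus read from 2 alleles and at a higher level in C2 than in any sister. In the XY clones Cbr3 had 20.1 to 49.2 FPKM and was biallelic in all but mE6, which used 129 alone. Cbr1 had 129 shares of 29.35 to 40.8% in the XY clones, with 34.2% in mE6. In the ES line of origin 90.1% of the counts of Cbr3 came from 129, but 33.6% of those of Cbr1.

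For 47 of 12595 genes measured in C2 and at least 1 sister (0.373%), C2 was monoallelic for one allele and a sister for the other. 21 of the 47 used 129 in C2, and 22 had at least 500 counts there. Some entries overlap in position and have nearly the same counts in C2. Examples are Foxl2os and Foxl2 (3253 and 3090), and A330040F15Rik and Fam111a (288 each). Such entries were counted as separate genes. Insig1, the sterol sensor that holds back cholesterol synthesis, had 100% of 4355 counts from 129 in C2, 10.2% in E1.2, and 49.3% and 52.5% in clones 129 and G4. Fam149a had 0.272% of 7352 counts from 129 in C2 and 92.3% and 99.2% in G4 and E1.2, with only 40 counts in clone 129. Dis3l, an exoribonuclease gene of the cytoplasmic exosome, had 98.3% of 4332 counts from 129 in C2, 98.8% in clone 129, 53.9% in G4 and 0.139% in E1.2. Gpr98, a very large adhesion receptor, had 5.74% of 12576 counts from 129 in C2 and 87.4%, 25.9% and 13.8% in the sisters. Grin2c, an NMDA receptor subunit gene, had 93.4% of 4493 counts from 129 in C2, with 3.03% of 33 counts in clone 129 and 90.9% and 98.7% in G4 and E1.2.

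Ppm1k, the mitochondrial phosphatase that activates branched-chain amino acid breakdown, was silent in C2 only (chr6:57456496-57485420). This was 1 of 9484 genes expressed in every sister, or 0.0105%, where silent means at most 3 counts and under 0.1 FPKM, and expressed at least 20 counts and 1 FPKM. Ppm1k had 0 counts in C2 and 437, 1316 and 784 counts in clones 129, G4 and E1.2, with 0 FPKM in C2 and 1.96, 3.75 and 2.13 FPKM in the sisters. All XY clones expressed it, at 1.38 to 2.14 FPKM, and so did the ES line F1-21.6 at 1.37 FPKM. With a floor of 3 counts in C2, it was at least 297-fold lower in CPM than the sisters' mean. Clones 129 and G4 used both alleles, with 129 shares of 49.4% and 59.9%, and E1.2 had 93.9%. The count of genes silent in C2 only was 4 without clone 129, 4 without G4 and 2 without E1.2. The promoter, minus strand of GRCm38.p6, chr6:57535488-57535737, is shown as that of the one gene in this class, and it held 14 CG.
Ppm1k: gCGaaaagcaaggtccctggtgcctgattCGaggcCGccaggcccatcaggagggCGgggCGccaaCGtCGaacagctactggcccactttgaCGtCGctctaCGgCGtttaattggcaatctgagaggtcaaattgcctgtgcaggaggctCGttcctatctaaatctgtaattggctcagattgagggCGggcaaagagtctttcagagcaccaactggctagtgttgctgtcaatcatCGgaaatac

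The reverse pattern was seen in 2 of 10227 genes (0.0196%), Fbln5 and an unnamed transcript. Fbln5, an extracellular protein of elastic fibres (chr12:102984775-103057364), had 482 counts and 1.04 FPKM in C2. Its sisters had 0, 0 and 3 counts, and at most 0.009 FPKM. All of the counts in C2 came from the Cast allele (129 share 0%, interval 0 to 0.762%). The ES line of origin had 0.143 FPKM and the XY clones 0.018 to 0.057 FPKM, so C2 was the one NPC clone with the gene at 1 FPKM. Counts, not scaled to library size, set C2 less apart. They were 13, 1, 28 and 110 in mC3, mE6, mB4 and mG3, and 134 in F1-21.6. In mG3 all of them came from 129. The count was 3 without clone 129, 11 without G4 and 12 without E1.2.

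Far above meant at least 4-fold over the highest sister, with 0.1 added to each FPKM, and at least 1 FPKM in C2. This held for 41 of 10306 genes (0.398%), and far below, by the mirrored rule, for 11 of 9590 (0.115%). Without clone 129 the counts were 54 and 45, without G4 104 and 33, and without E1.2 90 and 16. Of the 41, 40 had 20 counts in C2, and 15 of these were monoallelic there and 15 biallelic. Set against the XY clones the 41 were mixed: C2 lay above all 4 XY clones for 20, within their range for 18 and below them for 3. For 20 of the 41 clone 129 had no counts. Just inside the limit was a joined entry at a log2 ratio of 2.09, and just outside was Cybrd1 at 1.99.

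The largest difference was in Gstp1, the pi-class glutathione transferase (chr19:4035411-4037969). C2 had 4396 counts and 130.9 FPKM. The sisters had no counts and 0.160, 0 and 0 FPKM. Against a floor of 3 counts over the 3 sisters, C2 was at least 4091-fold higher in CPM. Both alleles were read in C2, with a 129 share of 43.9% (interval 42.4 to 45.3%), much as in the ES lines, where it was 36.0% at 73.7 FPKM in F1-21.6 and 32.3% at 112.9 FPKM in F1-23. The XY clones mC3, mE6 and mG3 had 37.7, 6.08 and 54.4 FPKM, nearly all from the 129 allele (98.4 to 100%), and mB4 had 0.152 FPKM. Gstp1 was thus at or under 0.16 FPKM in 4 of the 8 NPC clones, used almost only from 129 in 3 and from both alleles in C2. Gstp2, a near-identical copy 2.32 kb away, had 15.4 FPKM in C2 and 0.955, 0.464 and 0.92 FPKM in the sisters. Its counts ran the other way, with only 7 in C2 and 9, 11 and 25 in clones 129, G4 and E1.2. How reads were divided between the copies is therefore uncertain. The Gstp1 promoter, minus strand of GRCm38.p6, chr19:4037913-4038162, is shown because the gene is either at a high level or without counts in sister clones, and it held 18 CG.
Gstp1: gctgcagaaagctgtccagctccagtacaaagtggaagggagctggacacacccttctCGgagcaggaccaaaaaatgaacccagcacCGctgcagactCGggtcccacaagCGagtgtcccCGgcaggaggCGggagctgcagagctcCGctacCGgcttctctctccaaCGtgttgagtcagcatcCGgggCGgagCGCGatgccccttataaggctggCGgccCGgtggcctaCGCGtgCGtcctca

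Evc and Evc2 encode partner proteins of the primary cilium that act in Hedgehog signalling and lie 1.54 kb apart on chromosome 5 (chr5:37690410-37728136 and chr5:37729681-37816293). Evc had 7.47 FPKM in C2 and 0.005, 0.555 and 0.054 FPKM in clones 129, G4 and E1.2. Evc2 had 7.11 FPKM in C2 and 0, 0.540 and 0.016 FPKM in these sisters. C2 used the 129 allele alone, at 99.9% of 10251 and of 12811 counts. The fewer counts of G4 and E1.2 were 100% from 129 for both genes, and clone 129 had none. All XY clones expressed both genes, at 3.27 to 8.38 FPKM for Evc and 5.60 to 9.70 FPKM for Evc2. Near-exclusive use of 129 was not particular to C2. In mE6 and mG3 the 129 share was 97.4% and 99.85% for Evc, and 99.85% and 99.87% for Evc2. In mC3 and mB4 it was 70.9% and 87.5% for Evc, and 64.1% and 65.4% for Evc2. The ES line F1-21.6 had 6.89 and 7.49 FPKM with 129 shares of 72.8% and 60.3%. Their promoters face away from each other, on the minus strand at chr5:37336882-37337131 and on the plus strand at chr5:37338228-37338477 of GRCm38.p6, and held 11 CG each. They are shown as a neighbouring pair of genes, both far above every sister in C2 and both read there from the 129 allele.
Evc: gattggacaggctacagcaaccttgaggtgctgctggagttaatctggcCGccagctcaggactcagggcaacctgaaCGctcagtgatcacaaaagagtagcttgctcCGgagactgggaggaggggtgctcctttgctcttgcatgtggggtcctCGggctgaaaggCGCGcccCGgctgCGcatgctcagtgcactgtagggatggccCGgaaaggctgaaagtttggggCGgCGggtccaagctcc
Evc2: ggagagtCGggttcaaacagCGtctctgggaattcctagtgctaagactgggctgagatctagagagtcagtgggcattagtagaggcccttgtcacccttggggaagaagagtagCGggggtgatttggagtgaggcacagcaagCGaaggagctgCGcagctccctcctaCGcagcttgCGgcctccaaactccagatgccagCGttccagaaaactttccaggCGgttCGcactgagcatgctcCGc

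As3mt, which methylates arsenic, had 1479 counts and 6.32 FPKM in C2, 99.8% of them from the Cast allele. Its sisters had 0, 0 and 5 counts and the XY clones at most 0.497 FPKM, while the ES line F1-21.6 had 14.0 FPKM. Il1r1, the receptor of interleukin 1, had 2.88 FPKM in C2 and 0.020, 0.124 and 0.117 FPKM in clones 129, G4 and E1.2. No XY clone exceeded 0.584 FPKM, so C2 was the highest of the 8 NPC clones. Parp12, an interferon-inducible ADP-ribosyltransferase gene, had 2.58 FPKM in C2 and 0, 0.121 and 0.004 FPKM in the sisters. It had 0.016 to 1.91 FPKM in the XY clones, highest in mB4, and 2.98 FPKM in F1-21.6. Smpdl3b, a membrane lipid phosphodiesterase gene, had 19.6 FPKM in C2 and 0.069, 1.24 and 0.427 FPKM in the sisters, with 1.60 to 15.4 FPKM in the XY clones.

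For the other named genes C2 resembled several XY clones. Ctsz, the lysosomal protease cathepsin Z, had 5.02 FPKM in C2, at most 0.152 FPKM in a sister and 0.85 to 5.58 FPKM in the XY clones. Gfra4, the persephin receptor, had 3.87 FPKM in C2, at most 0.101 FPKM in a sister and 0.099 to 3.59 FPKM in the XY clones. Cacng5, an auxiliary subunit of AMPA receptors, had 2.82 FPKM in C2, at most 0.097 FPKM in a sister and 1.152 to 7.68 FPKM in the XY clones. The entry named Mir34a spans several kilobases and counts polyadenylated RNA, not the mature microRNA. It had 3.61 FPKM in C2, at most 0.094 FPKM in a sister and 1.26 to 2.82 FPKM in the XY clones.

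Among genes far below, Abhd6, a lipase that breaks down the endocannabinoid 2-arachidonoylglycerol, had 0.061 FPKM in C2 and 4.62, 9.85 and 14.5 FPKM in clones 129, G4 and E1.2. Its counts differed less, at 91 in C2 and 366, 1260 and 1859 in the sisters. Dmrta2, a forebrain patterning factor, had 0.194 FPKM in C2 and 8.59, 1.35 and 1.68 FPKM in the sisters. Sparcl1, a synapse-promoting protein secreted by astrocytes, had 20.2 FPKM in C2 and 101.5, 89.8 and 465.0 FPKM in the sisters.

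C2 lay below all 4 XY clones for 8 of the 11 genes and within their range for 3. For St3gal6 and Cox8b the difference was in FPKM alone. St3gal6, a sialyltransferase gene, had 1.16 FPKM in C2 and 5.45 to 7.29 FPKM in the sisters, but 16635 counts in C2 and 18241 to 21233 in the sisters. Cox8b had at most 15 counts in any of the 4 clones. By CPM, 37 of the 41 genes far above and 9 of the 11 far below kept a 4-fold difference, and 3 and 2 were under 2-fold.

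**Figure D5:**
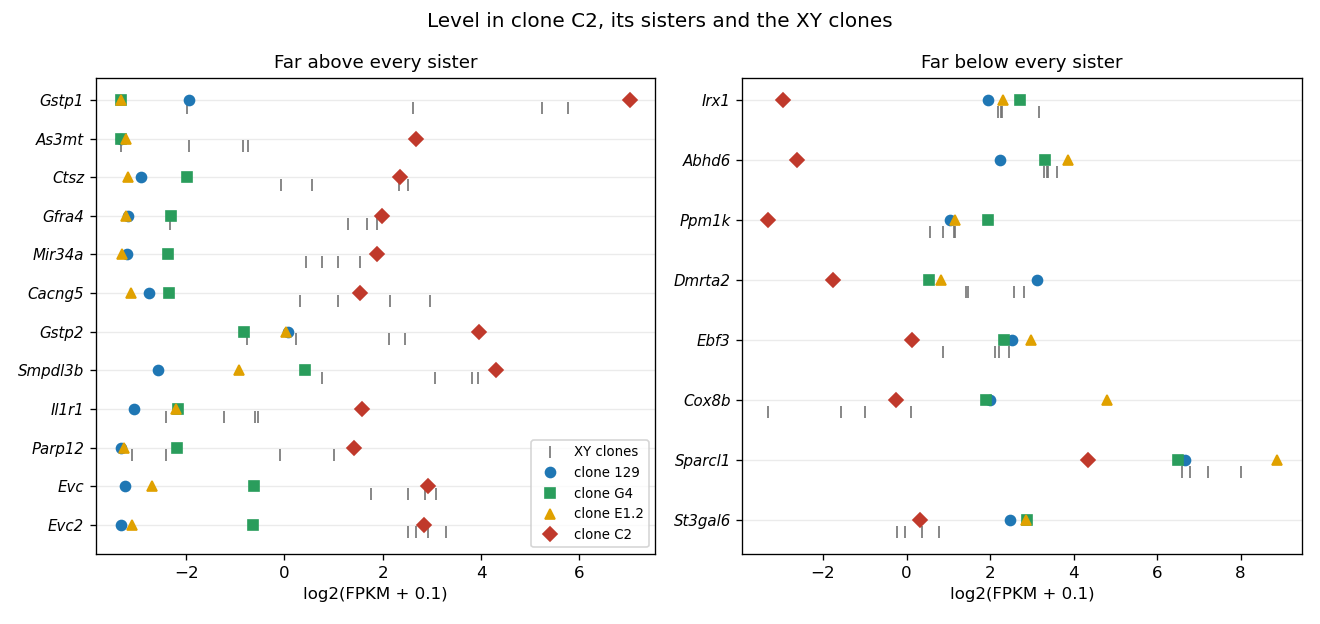
Log2 of FPKM plus 0.1 (horizontal axes) for the 12 named genes far above every sister (left) and 8 genes far below (right). Coloured symbols are the XX clones and grey ticks the 4 XY clones. Gstp1 in C2 is at 130.9 FPKM, above all 7 other clones, while Evc and Evc2 in C2 lie within the range of the XY clones.

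In the edgeR quasi-likelihood fit of counts, 0 of 14119 genes were higher and 0 lower in C2 at a Benjamini-Hochberg adjusted p of 0.05 (0% each way). 203 genes, 1.44%, had an unadjusted p under 0.05, 97 of them higher and 106 lower in C2. DESeq2 called 14 of 14380 genes higher (0.0974%) and 33 lower (0.229%). 8 of the 14 were among the genes far above and 7 of the 33 among those far below, including Gstp1, As3mt, Il1r1, Fbln5, Irx1, Ppm1k and Ebf3. For 4 of the 33 genes C2 was not below every sister. Both fits take the spread among the 3 sisters as that of C2.

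Gene lists were read by the share of members at least 2-fold outside the sisters' range. Of 11014 autosomal genes with 1 FPKM in at least 1 clone, 113 were above (1.03%) and 59 below (0.536%). The edgeR test called no gene at all, so it could not tell the 29 lists apart. List members named in the next paragraphs for lying outside the range were named after their values were seen.

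Of 21 expressed genes of glutathione metabolism and detoxification, 4 lay above and 0 below, with a median log2 fold change of -0.06 beside -0.03 for all genes. They were Gstp1 and Gstp2, given above, Gstm5 and Gpx3, and Gstp2 lay above in FPKM but not in counts. Gstm5, a mu-class glutathione transferase, had 5.68 FPKM in C2 and 0, 0.026 and 1.67 FPKM in clones 129, G4 and E1.2. Gpx3, a secreted glutathione peroxidase, had 1.32 FPKM in C2 and 0.063, 0 and 0.058 FPKM. Both used the 129 allele alone in C2.

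Astrocyte markers had a lower summed level in C2 than in G4 and E1.2. Of 15 expressed markers 0 lay above and 2 below, S100b and Sparcl1, with a median log2 fold change of -1.42. S100b, a calcium-binding protein of astrocytes, had 6.16 FPKM in C2 and 22.2, 16.7 and 82.9 FPKM in the sisters. The summed level of the list was 453.3 FPKM in C2, 436.5 FPKM in clone 129, 755.4 FPKM in G4 and 1532 FPKM in E1.2, so C2 was close to clone 129. Gja1 and Sparcl1 are expressed by astrocytes. In bulk RNA fewer cells of a type and less RNA per cell cannot be told apart, and the part of astrocyte content in the levels of both genes was not tested. The level of Gja1 from the 129 allele in C2 was within the range of the sisters, as given above.

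Position genes of the body axis gave 2 of 23 expressed Hox genes below the sisters and 0 above. Hoxb7 had 7.48 FPKM in C2 and 17.8, 19.2 and 26.2 FPKM in the sisters, and Hoxb6 had 3.03 FPKM in C2 and 9.52, 33.1 and 51.1 FPKM. Of 5 expressed endoderm genes, 2 lay below. Gata4 had 2 counts and 0.013 FPKM in C2, and 2.72, 1.96 and 0.902 FPKM in the sisters. Lama1 had 0.040 FPKM in C2 and 0.330, 2.24 and 0.626 FPKM.

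In the Notch pathway 2 of 17 genes lay above. The ligand gene Dll3 had 9.90 FPKM in C2 and 2.91, 3.92 and 1.35 FPKM in the sisters, and Mfng, a glycosyltransferase of Notch receptors, had 3.91 FPKM in C2 and 1.86, 1.53 and 0.577 FPKM. Of 32 cell cycle genes 1 lay above, the cell cycle inhibitor locus Cdkn2a, with 311.4 FPKM in C2 and 130.2, 153.9 and 125.0 FPKM in the sisters. In the interferon and MHC list 7 of 15 measured genes were monoallelic in C2, including Ifit2, Mx1 and Rsad2, against 9, 4 and 4 in clones 129, G4 and E1.2, and none of them was among the 27. Over all genes measured in the 4 clones the share monoallelic was 4.09% in C2, and 7.11%, 4.64% and 3.90% in clones 129, G4 and E1.2. The part of depth in the list was not tested.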

How the data were processed

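For each gene in each library, the authors deposited counts of observations that tell the alleles apart, the ratio of those counts from 129 (a fraction from 0 to 1, printed in percent), and FPKM. The tools were SAMtools, TopHat 1.4.0 and Cufflinks 1.3.0 and the build mm9, per the submitters' processing notes, and which step made which column is not given in the sources used here. It is also not stated if a read that crosses more than one variant counts once, so intervals and floors cover counting error only. FPKM as deposited by the authors were not rescaled; starts in the table count from 0 and are printed from 1.

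Members, lists and tests were chosen with earlier results of these data known. Genes were grouped by the limits given in the text (20 counts, 85%, 70%, 4-fold with 0.1 FPKM added). Counts over both alleles were tested with edgeR 4.0.16 (TMM, filterByExpr, quasi-likelihood F test) and allele log2 ratios, with 0.5 added to each allele, with limma 3.58.1, in 1 library of C2 against 3 of the sisters; both scripts were tested on simulated data. DESeq2 1.42.0, other limits and leaving out each sister were alternatives. CPM used TMM library sizes. P-values are two-sided and measure spread between clones with 1 library each; an exact permutation test of 1 against 3 cannot go below 0.25. Named genes are the 20 of the 27 and the 5 of the 17 with the highest count in C2, up to 10 silent or expressed in C2 only, the 12 farthest above and below, and the 5 of opposite allele with the highest count; entries that join genes or carry no symbol are counted but not named, and 1 gene among those far below is counted but not reported here. 694 entries of the table join several names. Entries that overlap in position were counted separately in every set, and some of them have the same or nearly the same counts. Shares of single libraries have Clopper-Pearson 95% intervals. Promoters are the 250 bases before each start in a RefSeq table (GRCm38.p6), found for 20 of the 27 genes and for 64.1% of all measured genes, too few to compare base composition between the sets. Python 3.11.15 was used for the remaining steps.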

Additional observations from a re-analysis of the deposited data

Results flagged for a closer look

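In the count of genes biallelic in 1 XX clone and monoallelic in the other 3, clone 129 stood far from the rest, with 4 genes, while C2 had 17 and both G4 and E1.2 had 16. Clone 129 also stood apart in the number of genes far below all other clones in FPKM, 177, while C2 had 11, G4 had 24 and E1.2 had 18. Both were picked out by the gap of the extreme clone to its nearest neighbour, relative to the whole range. 28 groups of 4 clones were examined in this way, and chance picks out about 5% of such groups. Many of the 28 were 129 shares of single genes over the 4 XY clones, which do not include C2. Clone 129 had the lowest total count of the 4 clones, and the part of depth in these counts was not tested. No measure compared over the 4 XX clones set C2 apart in this way.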

How the results depend on the processing

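No paired analysis was possible because C2 is a single library and shares 1 replicate number, given in accession order, with the sisters. The 27 genes monoallelic in C2 only numbered 17, 14 and 9 at minimums of 50, 100 and 500 counts, 53 and 10 at a major allele of 80% and 95%, 9 with sisters at 60% or less, 9 at 1 FPKM in each clone, and 46 to 83 without one sister. Gja1, Kctd18 and Zfp26 were members under all 12 settings. The 17 genes biallelic in C2 only numbered 9 and 5 at 100 and 500 counts, 8 and 3 at 90% and 95%, 7 at 60% or less, 7 at 1 FPKM, and 42 to 56 without one sister. Genes silent in C2 only numbered 4 and 0 at 0.5 and 5 FPKM, and 2 to 4 without one sister. Genes expressed in C2 only numbered 1 at 0 counts, 0 at 5 FPKM, and 3 to 12 without one sister. Genes far above numbered 17 with a pseudocount of 1, 113 at 2-fold, 21 at 8-fold, and 54 to 104 without one sister. Genes far below numbered 5, 34 and 4 under these settings, 21 by CPM, and 16 to 45 without one sister. DESeq2 called 14 genes higher and 33 lower. With the XY clones in the fit 1 gene, Ppm1k, was lower, and 18 differed in allele share. The other alternatives of both fits kept 0 calls. Limits: each clone is 1 library, so clone and library cannot be told apart. Stricter rules and more sisters can only remove genes from a set. Members with few counts had wide intervals, and FPKM and counts differed for some genes. The cause of the other differences was not tested.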

Other observations

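A few genes outside the rules were picked after their values were seen. Nkx6-1, a homeobox gene of the ventral neural tube, had 0.140% of 712 counts from 129 in C2 and 29.6%, 28.7% and 20.5% in the sisters, the last over 39 counts and outside the limit for biallelic sisters, and it had no counts in the XY clones. Sfmbt2, a Polycomb group gene, had 58 counts in C2 and 1442, 1577 and 2942 in the sisters. Cxcl12, a chemokine gene, had 0 counts in C2 and 2294, 108 and 7167 counts in clones 129, G4 and E1.2, where 0.0436%, 0.926% and 3.25% came from 129. The XY clones used both alleles of Cxcl12, with 18.2 to 35.6% from 129.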
